A study of Mus musculus with 6 samples.

Results

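The Hippo pathway genes described here are 10 named genes: the co-activators Yap1 and Wwtr1, the kinases Lats1 and Lats2, the transcription factors Tead1, Tead2, Tead3 and Tead4, and the pathway targets Amotl2 and Ankrd1. They were chosen by name, and all 10 had a probe set annotated to a single gene among the 19938 genes so represented on the array. The samples were chondrocytes of the growth plate, the cartilage through which long bones lengthen, from the hindlimbs of conditional Lkb1 mutant mice and of control mice at postnatal day 30. Lkb1 is the older name of Stk11, a kinase that activates AMPK and related kinases. Each group had 3 arrays, 1 per sample, and all mice had a mixed FVB, 129S6 and C57CL/6 background. The Cre driver, the exact alleles of both groups, and the sex and number of mice per sample are not given in the labels. Separate animals are not stated for the replicates, so every p-value reflects only how far these samples differ among themselves.

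The Hippo pathway restrains growth by a kinase cascade. The Ste20-type kinases encoded by Stk3 and Stk4, with their scaffold Sav1, activate Lats1 and Lats2, which phosphorylate the co-activators YAP (Yap1) and TAZ (Wwtr1) and keep them out of the nucleus. When the kinases are inactive, YAP and TAZ bind the TEAD transcription factors and turn on target genes such as Ccn1, Ccn2, Amotl2 and Ankrd1. In cultured cells LKB1 is known to act on this pathway through MARK kinases. Much of the control of YAP and TAZ is by phosphorylation and location, which transcript levels do not show.

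Stk11, the mutated gene, is given first as a check of the labels. Its level was 7.39, 7.51 and 7.52 in mutant replicates 1 to 3, against 8.68, 9.08 and 9.67 in control replicates 1 to 3, as log2(intensity + 1), the scale of every level here. Every mutant array was below every control array (limma adjusted p = 0.00387). The sources used here do not say whether this probe set lies in the deleted part, and if it does not, its level checks nothing. Among controls Stk11 was also highest on the array with the most marrow signal, described next. Its difference was -1.21 against control replicate 1 alone and 0.46 (adjusted p = 0.602) with the marrow level as a covariate. Differences are mutant minus control on this log2 scale, which slightly understates the change of a dim gene. Chondrocyte markers were well represented in both groups: all 10 of 10 genes, among them Col2a1 and Acan, exceeded the background on every array. Background here is the 95% point of 1035 olfactory receptor probe sets, 6.40 to 6.73 per array. The mean of the chondrocyte markers was 11.40 to 11.53 in mutants and 11.49 to 11.64 in controls, and limma called 0 of 10, with 1 lower at an unadjusted p of 0.05.

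Markers of several other cell types moved with the groups. The marrow level, a mean over 23 markers of erythroid cells, neutrophils and B lymphocytes, was 6.28, 6.21 and 5.96 in mutant replicates 1 to 3, against 8.65, 9.33 and 9.99 in control replicates 1 to 3. Of these lists, 4 of 4 erythroid genes, 10 of 11 neutrophil genes and 7 of 8 B lymphoid genes were called lower. Above background on every mutant array were 0, 3 and 1 of them, against 3, 11 and 7 on every control array. Fibrous tissue and tendon markers averaged 10.08 to 10.11 in mutants and 8.87 to 9.27 in controls, with 7 of 10 called higher. Endothelial markers averaged 7.28 to 7.56 in mutants and 6.62 to 6.78 in controls, with 8 of 10 higher. Smooth muscle and pericyte markers averaged 8.31 to 8.49 in mutants and 7.26 to 7.61 in controls, with 5 of 8 higher and 1 lower. Skeletal muscle markers averaged 6.76 to 6.96 in mutants and 6.58 to 6.64 in controls, with 2 of 9 higher. Osteoblast markers averaged 8.75 to 8.84 in mutants and 8.84 to 9.18 in controls, with 1 of 5 lower. Their groups overlapped, with mutant replicate 1 at 8.845 and control replicate 3 at 8.836. The shares called of skeletal muscle and osteoblast markers, 22.2% and 20%, were near the 14.7% of all genes. In such bulk samples, more cells of a type and more RNA per cell cannot be told apart.

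Among the Hippo genes, the transcript of Yap1 was higher in mutant growth plates and the other 9 did not pass the test. Of the 10 genes, all 10 passed the filter on low intensity, 1 was called higher and 0 were called lower with limma at an adjusted p of 0.05. At an unadjusted p of 0.05 they were 2 higher (Yap1 and Lats1) and 0 lower. Over all 17020 genes tested, 14.7% were called, 7.84% higher and 6.82% lower. The median difference of the 10 genes was 0.10, against 0.029 over all genes tested, but 0.052 without control replicate 3 and 0.20 without control replicate 1. The groups did not overlap for 2 of the 10 genes, Yap1 and Lats1, both higher in the mutants, where 20.0% of all genes were higher without overlap, 16.7% lower, and 36.7% in either direction. These shares place the 10 genes near the background of the comparison.

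**Figure D1:**
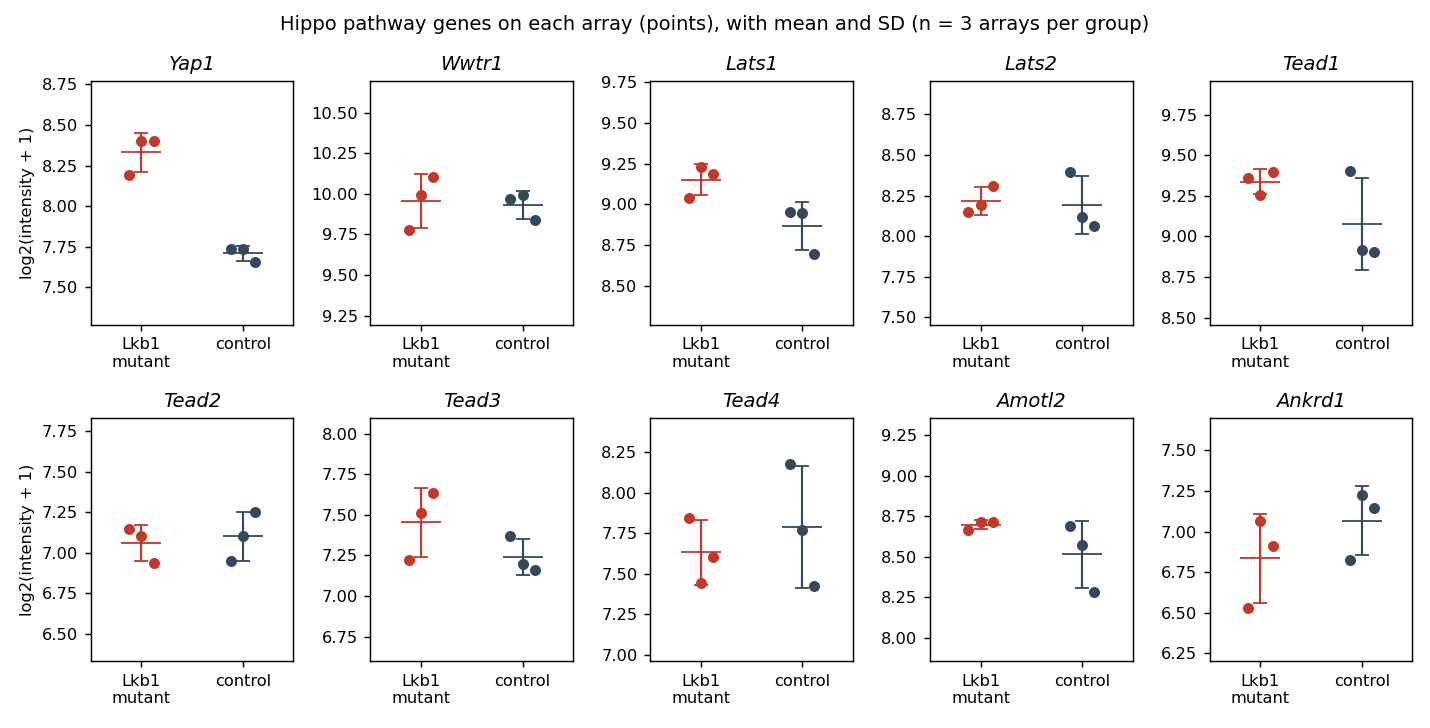
Level of each Hippo pathway gene, as log2(intensity + 1), on the 3 Lkb1 mutant arrays (left, red) and the 3 control arrays (right, blue), with group mean and SD. Every panel spans the same range on the vertical axis. Yap1 lies between 8.19 and 8.40 in mutants and between 7.66 and 7.74 in controls, and in 8 of the other panels the groups overlap.

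Yap1 encodes YAP, the better known of the paired co-activators. Its level was 8.19, 8.40 and 8.40 in mutant replicates 1 to 3, against 7.74, 7.73 and 7.66 in control replicates 1 to 3. All mutant arrays were above all control arrays, and the gap between the groups was wider than the range within either. The mean was 8.33 ± 0.12 in mutants and 7.71 ± 0.05 in controls (SD, n = 3 each). The difference of 0.62 (SE 0.09, 95% interval 0.40 to 0.84) is 1.54-fold, with a limma adjusted p of 0.00617. By its p it ranked 632 of 17020 genes, and by the size of its difference 1735.

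Among the controls Yap1 was within 7.66 to 7.74, and their marrow level spanned 8.65 to 9.99. Yap1 was lowest on the control with the most marrow signal. Against control replicate 1 alone, the control with the least marrow signal, the Yap1 difference was 0.59. That value rests on a single control and has no test. Adjusted for the marrow level, the difference was 0.35 (SE 0.36, adjusted p = 0.621), in a fit that extends the trend within each group over a range with no array. The part of the fibrous, endothelial and smooth muscle signal in the Yap1 difference was not tested.

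**Figure D2:**
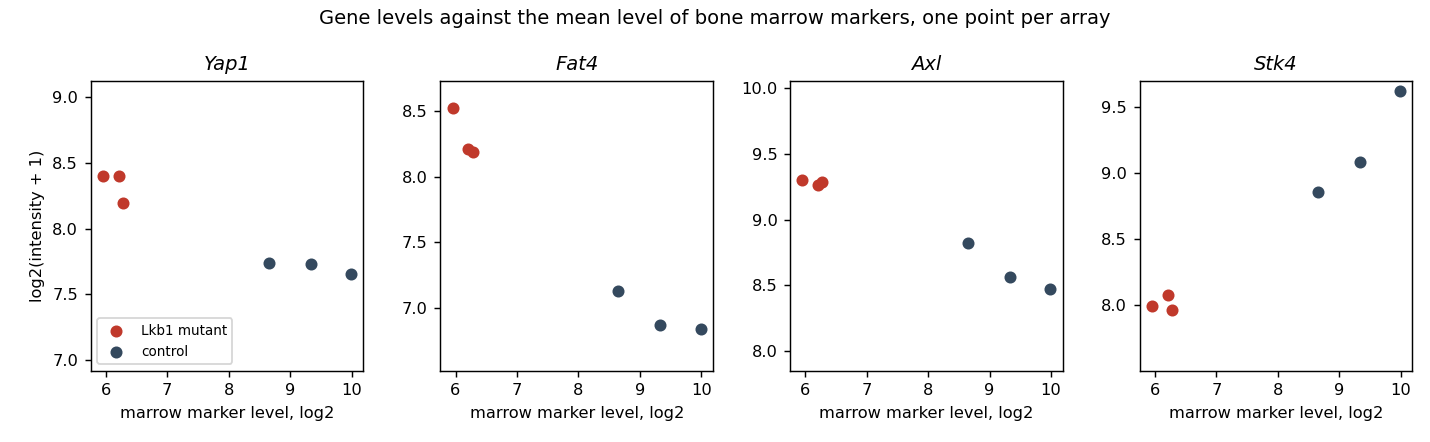
Level of Yap1, Fat4, Axl and Stk4 (vertical axis, log2(intensity + 1)) against the mean level of 23 bone marrow markers (horizontal axis, log2), with 1 point per array for mutants in red and controls in blue. The groups do not overlap on the horizontal axis. Among controls, on the array with the highest marrow level, Stk4 is highest and Yap1, which spans 7.66 to 7.74, is lowest.

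Wwtr1 encodes TAZ, the co-activator related to YAP. It was at 9.77, 9.99 and 10.10 in mutant replicates 1 to 3, against 9.97, 9.99 and 9.84 in control replicates 1 to 3. The groups overlapped fully, and the difference was 0.026 (95% interval -0.23 to 0.28, adjusted p = 0.905). The change of Yap1 exceeded that of Wwtr1 by 0.60, and this contrast did not overlap between the groups. In an exact two-sided permutation test the p was 0.1, the smallest that 3 against 3 arrays can give, and 0.267 after Benjamini-Hochberg adjustment over 8 pairs of relatives. Those pairs were Yap1 with Wwtr1, Lats1 with Lats2, and all pairs of the TEAD genes, chosen after the values were seen. The adjusted p of every pair was 0.267 or higher.

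The LATS kinases, which phosphorylate YAP and TAZ, were not called. Lats1 was at 9.04, 9.23 and 9.19 in mutant replicates 1 to 3, against 8.95, 8.95 and 8.70 in control replicates 1 to 3. Every mutant array was above every control array, though the nearest arrays lay close. The difference was 0.29 (95% interval 0.037 to 0.54), with an adjusted p of 0.122. Lats2, itself a known YAP target, was at 8.15, 8.19 and 8.31 in mutants, against 8.40, 8.12 and 8.06 in controls. Control replicate 1 was its highest array, and the difference was 0.024 (95% interval -0.24 to 0.29, adjusted p = 0.916). The change of Lats1 exceeded that of Lats2 by 0.26, without overlap between the groups (exact permutation p = 0.1, adjusted p = 0.267).

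The 4 TEAD genes encode the DNA-binding partners of YAP and TAZ, and none was called. Tead1 was at 9.36, 9.25 and 9.40 in mutant replicates 1 to 3, against 9.40, 8.92 and 8.90 in control replicates 1 to 3. Control replicate 1 matched the mutants, and the other 2 controls were lower. The difference was 0.26 (95% interval -0.08 to 0.60, adjusted p = 0.284), and without control replicate 1 it was 0.43 and called (adjusted p = 0.022). Against control replicate 1 alone, the control with the least marrow signal, the Tead1 difference was -0.066, a value with no test. A second Tead1 probe set differed by 0.32 and had the same order of arrays among the controls.

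Tead3 was at 7.22, 7.51 and 7.63 in mutants and 7.37, 7.19 and 7.16 in controls, a difference of 0.21 (95% interval -0.08 to 0.51). Its groups overlapped through control replicate 1 (adjusted p = 0.320). Tead4, which is also known from muscle and trophoblast, was at 7.84, 7.45 and 7.61 in mutants and 8.17, 7.77 and 7.42 in controls. It had the widest spread of the 10 genes among controls (SD 0.38), and its difference of -0.16 has an interval of -0.61 to 0.30. Tead2 was at 7.15, 7.10 and 6.94 in mutants and 6.95, 7.10 and 7.25 in controls. Its groups overlapped, with a difference of -0.039 (95% interval -0.30 to 0.22).

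Besides Lats2, the targets among the 10 genes were Amotl2 and Ankrd1, and these were not called either. Amotl2 encodes an angiomotin family scaffold that binds YAP. It was at 8.67, 8.71 and 8.71 in mutant replicates 1 to 3, against 8.69, 8.57 and 8.28 in control replicates 1 to 3. The mutants varied little (SD 0.03) and control replicate 1 lay among them. The difference was 0.18 (95% interval -0.09 to 0.46, adjusted p = 0.356).

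Ankrd1 encodes a muscle ankyrin repeat protein that is induced by stretch and is a much used readout of YAP activity. It was at 6.53, 7.06 and 6.91 in mutants, against 6.83, 7.23 and 7.15 in controls. The groups overlapped, with a difference of -0.23 (95% interval -0.61 to 0.15, adjusted p = 0.410). On its dimmest array relative to background Ankrd1 stood only 0.045 above the olfactory receptor 95% point, so a decrease would be hard to measure. Its paralogs Ankrd23 and Ankrd2 differed by 0.29 and 0.19 (adjusted p = 0.0594 and 0.186), and neither passed the test. Ankrd2 lay below that olfactory receptor point on all 6 arrays and Ankrd23 below it on control replicate 3, so these values are at or near background.

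TEAD factors bind the hexamer GGAATG, also read as CATTCC on the other strand. It was searched on both strands in the 250 bases before the transcript starts of the RefSeq promoter table (GRCm38.p6), and no other motif was searched. Of the 10 genes 8 had an entry, and 5 of these held the hexamer: Yap1, Wwtr1, Tead3, Amotl2 and Ankrd1. Of all genes listed there, 14.4% held it, as did 12.6% of all 32851 promoters. In the target list described below, 4 of 12 genes with an entry held the hexamer: Axl, Ccn1, Crim1 and Ptpn14. The shares were 3 of 17 for the upstream regulators and 6 of 11 for the partners. The promoters printed belong to the called co-activator, to the target genes Amotl2 and Ankrd1 and to Axl, a called target described below. Capitals mark the hexamer on either strand. The windows are chr9:8004597-8004846 (minus strand) for Yap1, chr9:102717554-102717803 (plus strand) for Amotl2, chr19:36119845-36120094 (minus strand) for Ankrd1 and chr7:25788734-25788983 (minus strand) for Axl. All or part of the Yap1, Amotl2 and Axl windows lies within the outer bounds of the RefSeq gene, and the Ankrd1 window lies outside them.
Yap1: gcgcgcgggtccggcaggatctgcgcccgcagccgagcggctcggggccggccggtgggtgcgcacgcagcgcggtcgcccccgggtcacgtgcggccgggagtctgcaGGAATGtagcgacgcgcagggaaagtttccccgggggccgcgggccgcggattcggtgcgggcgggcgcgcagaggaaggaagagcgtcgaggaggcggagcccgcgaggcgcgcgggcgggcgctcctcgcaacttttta
Amotl2: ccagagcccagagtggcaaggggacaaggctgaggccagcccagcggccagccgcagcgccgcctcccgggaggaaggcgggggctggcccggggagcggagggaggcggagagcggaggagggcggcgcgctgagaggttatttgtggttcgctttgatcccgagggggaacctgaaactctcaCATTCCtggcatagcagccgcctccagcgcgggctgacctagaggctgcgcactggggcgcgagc
Ankrd1: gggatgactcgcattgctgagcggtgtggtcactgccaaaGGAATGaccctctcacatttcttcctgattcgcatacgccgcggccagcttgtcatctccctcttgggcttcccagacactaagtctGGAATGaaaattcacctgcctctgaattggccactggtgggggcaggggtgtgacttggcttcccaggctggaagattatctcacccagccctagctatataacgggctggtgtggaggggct
Axl: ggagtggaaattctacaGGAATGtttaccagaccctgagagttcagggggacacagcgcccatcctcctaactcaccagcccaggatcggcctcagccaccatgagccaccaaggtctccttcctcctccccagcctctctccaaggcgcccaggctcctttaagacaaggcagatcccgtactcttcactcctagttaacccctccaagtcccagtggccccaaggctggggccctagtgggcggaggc
The Ankrd1 window holds 2 matches, starting 210 and 123 bases before the transcript start. The Yap1, Amotl2 and Axl windows hold 1 match each, starting 141, 65 and 233 bases before it. Of these genes Yap1 and Axl rose in the mutants, and Amotl2 and Ankrd1 did not pass the test. A match of letters is a description and not a bound site.

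A separate set of 19 genes known as YAP and TAZ targets, drawn from a target signature of human tumours, was higher in part. It leaves out Lats2, Amotl2 and Ankrd1, the targets described above, none of which was called in the reported fit. Of 19 tested, 11 had a positive and 8 a negative difference, against 9361 and 7656 of all 17020 genes. Limma called 6 higher and 0 lower (31.6% called, against 14.7% of all genes). Counting Lats2, Amotl2 and Ankrd1 among the targets would lower that 31.6%. The median difference was 0.24, against 0.029 for all genes. Counting Lats2, Amotl2 and Ankrd1 would lower the median as well, since their differences of 0.024, 0.18 and -0.23 all lie below 0.24. The 0.24 also rests on few arrays: it was 0.098 without mutant replicate 2, 0.14 without control replicate 3 and 0.0054 with array weights. At an unadjusted p of 0.05 limma gave 9 higher and 1 lower, the last being Gadd45a (-0.51, adjusted p = 0.0561). The 6 were Igfbp3, Myof, Axl, Rbms3, Fjx1 and Ptpn14. Ccn1 and Ccn2, the classical targets, were chosen with their values in view and did not pass the test. Ccn1 differed by -0.07 (95% interval -0.28 to 0.14, adjusted p = 0.66) and Ccn2 by -0.08 (95% interval -0.26 to 0.11, adjusted p = 0.578).

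Igfbp3, which encodes an IGF-binding protein, had the largest difference of the target list. It was at 8.14, 8.03 and 8.44 in mutant replicates 1 to 3, against 6.48, 6.24 and 6.18 in control replicates 1 to 3. The difference was 1.91 (SE 0.13, adjusted p = 0.000377), 3.75-fold, and it kept its call in each of the 6 fits that left out 1 array. Control replicates 2 and 3 lay below the olfactory receptor 95% point, so the fold is limited by background.

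Axl, a receptor tyrosine kinase, was at 9.28, 9.27 and 9.30 in mutants, against 8.82, 8.57 and 8.47 in controls. The mutants agreed closely and all exceeded every control. The difference was 0.66 (SE 0.11, adjusted p = 0.00835), and 0.46 against control replicate 1 alone. Among controls Axl was lowest on the array with the most marrow signal.

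Fjx1, a relative of the fly Golgi kinase four-jointed, was at 7.18, 7.31 and 7.49 in mutants, against 6.74, 6.80 and 6.77 in controls. It rose by 0.56 (adjusted p = 0.0115), a call lost without mutant replicate 3 (adjusted p = 0.0567). Myof, a membrane repair protein, rose by 0.73 (adjusted p = 0.0313). Its call ended without each of the mutant replicates and without control replicate 2 (adjusted p up to 0.117), and the difference was 0.37 against control replicate 1 alone. Rbms3, an RNA-binding protein, rose by 0.62 (adjusted p = 0.0475), a call that ended without each array but control replicate 2 (up to 0.154). It ended too with no filter (0.0572) and with array weights, where the difference was 0.28 (adjusted p = 0.0581).

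Ptpn14, a phosphatase that binds YAP and is also a target, stands in the list of partners as well. It was at 8.65, 8.84 and 8.88 in mutants, against 8.53, 8.21 and 7.99 in controls. It rose by 0.55 (adjusted p = 0.0471), with an adjusted p of up to 0.165 without each array but control replicate 1, and by only 0.26 against control replicate 1 alone. It was the 1 call among 12 partners of YAP, TAZ and TEAD tested, a list that holds Vgll1 to Vgll4, Amot, Amotl1, Ajuba, Limd1, Wtip, Tjp1 and Ywhaz (8.33% called, below the 14.7% of all genes, with a median difference of 0.20, against 0.029).

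Without each array in turn, 2 to 5 of the 19 target genes were called higher. The fewest were called without mutant replicate 3. The fibrous, endothelial and smooth muscle markers were higher in the same arrays, and their part in the target genes was not tested.

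**Figure D3:**
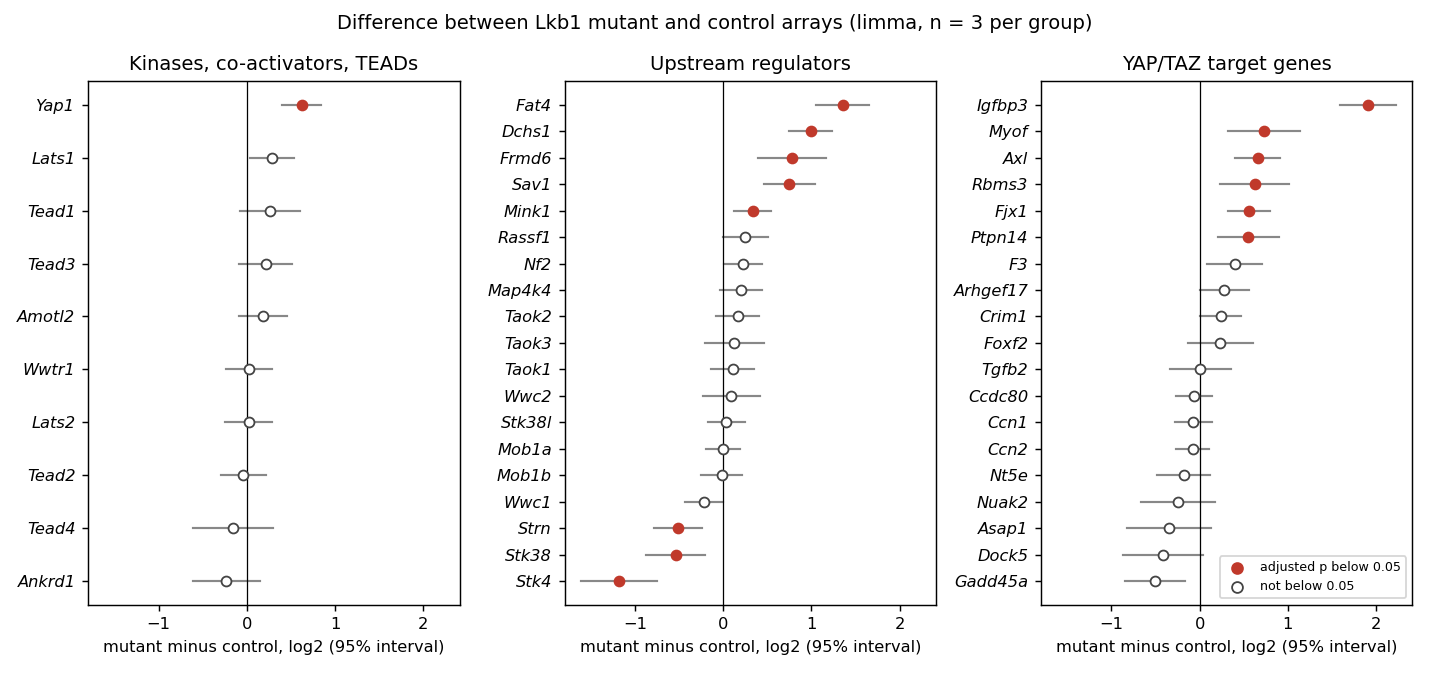
Difference between Lkb1 mutant and control arrays on the log2 scale (points) with the 95% interval of the limma fit (lines). Shown are the 10 Hippo genes, 19 genes listed as upstream regulators and 19 target genes. Filled points have an adjusted p below 0.05: 1, 8 and 6 genes from left to right. Stk4 is the gene farthest below 0 and Igfbp3 the gene farthest above it.

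Upstream of the LATS kinases, genes of the atypical cadherins and of some scaffolds were higher and the kinase gene Stk4 was lower. Of 19 genes tested in the list of upstream regulators, 5 rose and 3 fell (42.1% called, against 14.7% of all genes). The median difference was 0.13, against 0.029 for all genes. Besides upstream genes, that list holds the LATS-related kinases Stk38 and Stk38l and the LATS cofactors Mob1a and Mob1b. Fat4 and Dchs1 encode giant protocadherins that bind each other across cell contacts, and their fly relatives act upstream of Hippo. Fat4 was at 8.18, 8.21 and 8.52 in mutant replicates 1 to 3, against 7.13, 6.87 and 6.84 in control replicates 1 to 3. Among controls Fat4 was lowest on the array with the most marrow signal. On control replicates 2 and 3 it lay close to their olfactory receptor 95% points of 6.585 and 6.65. It rose by 1.36 (SE 0.13, adjusted p = 0.00111), 2.56-fold, and by 1.17 against control replicate 1 alone. Adjusted for the marrow level, it differed by 0.50 (adjusted p = 0.524). On the same arrays 7 of 10 fibrous, 8 of 10 endothelial and 5 of 8 smooth muscle markers rose, and their part in the upstream genes was not tested.

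Dchs1 was at 7.80, 7.85 and 8.05 in mutants, against 6.82, 6.89 and 7.02 in controls. It rose by 0.99 (SE 0.10, adjusted p = 0.0014), and by 1.08 against control replicate 1 alone. Both cadherin genes lay above every control in every mutant array. The fly kinase related to Fjx1, described above, modifies these cadherins.

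Sav1, the scaffold of the upstream kinases, was at 9.14, 8.79 and 9.04 in mutants, against 8.10, 8.35 and 8.26 in controls. It rose by 0.75 (SE 0.12, adjusted p = 0.00777) and kept its call in each fit that left out 1 array. Frmd6, a FERM domain protein related to fly Expanded, rose by 0.78 (adjusted p = 0.0211). That call ended without each of the mutant replicates and without control replicate 2 (adjusted p up to 0.0898), and the difference was 0.46 against control replicate 1 alone. Mink1, a Ste20-type kinase that can act on LATS, rose by 0.33 with an adjusted p of 0.0494. It was named after its value was seen, and leaving out any array but control replicate 1 ended its call.

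Stk4, an upstream Hippo kinase that is abundant in blood cells, was at 7.96, 8.08 and 7.995 in mutants, against 8.86, 9.08 and 9.62 in controls. It fell by 1.18 (SE 0.18, adjusted p = 0.00689), 2.26-fold, and by 0.85 against control replicate 1 alone. Among the controls it was highest on the array with the highest marrow level, and its difference was 0.53 when the marrow level was a covariate (adjusted p = 0.486).

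Stk38, a kinase of the LATS-related NDR family, fell by 0.54 (adjusted p = 0.0447), and Strn, a striatin that holds a phosphatase on the upstream kinases, fell by 0.51 (adjusted p = 0.0268). Strn was named after its value was seen. The calls of both ended without each of the mutant replicates and without control replicate 2 (adjusted p up to 0.141). Both also had their highest control level on control replicate 3, at 7.91 for Stk38 and 8.38 for Strn. The paralog Stk38l and the LATS cofactors Mob1a and Mob1b differed by 0.038, -0.0048 and -0.017 and were not called.

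Nf2, the tumour suppressor merlin, was above every control in every mutant array but was not called (0.23, adjusted p = 0.146). It too was named after its value was seen. Of the MARK kinases and Scrib, Mark2 fell by 0.36 (adjusted p = 0.0448), the 1 call of 5 genes (20%, near the 14.7% of all genes). That call ended when any array but control replicate 1 was left out (adjusted p up to 0.145).

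**Figure D4:**
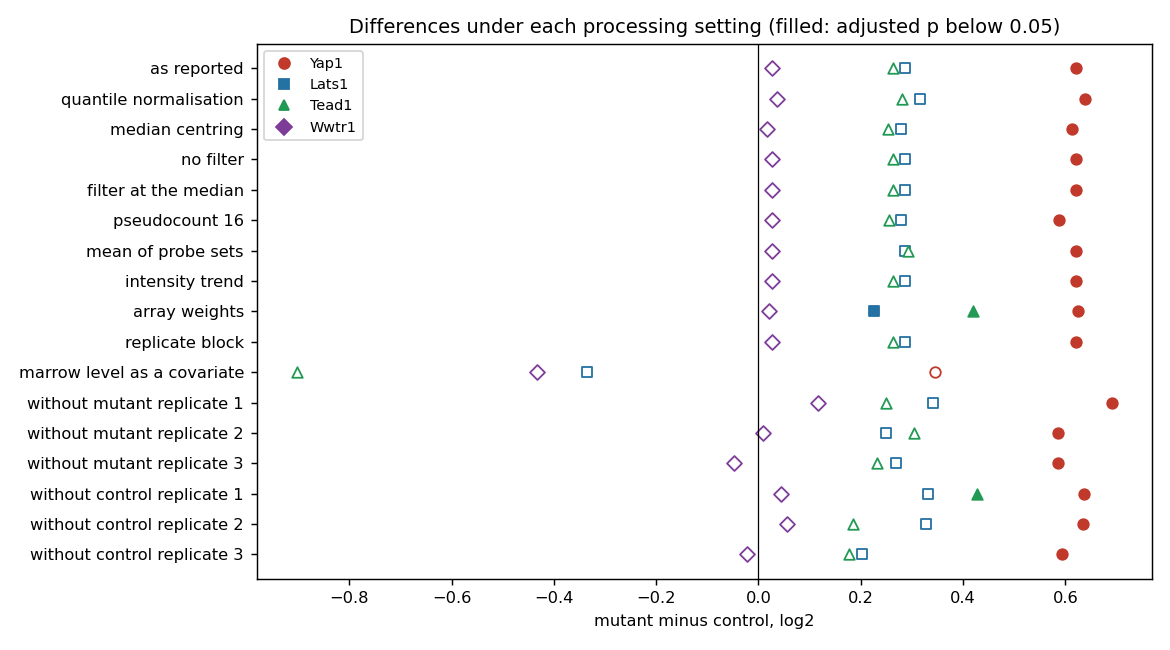
Difference between mutant and control arrays (horizontal axis, log2) for Yap1, Lats1, Tead1 and Wwtr1 under each setting (vertical axis), with filled symbols for an adjusted p below 0.05. Yap1 lies between 0.59 and 0.69 in every setting except the marrow covariate, where it is 0.35 and not called. Wwtr1 lies between -0.048 and 0.12 outside that covariate.

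The genes whose levels followed each Hippo gene most closely across the 6 arrays were listed as a description, since the arrays share their group. For Yap1 they were Sgsh (Pearson r = 0.998), Ptprb (0.995) and Aktip (0.995). Of these Ptprb, an endothelial phosphatase, and Aktip rose by 0.90 and 0.57, while Sgsh, a lysosomal sulfatase, differed by 0.07 and was not called. For Wwtr1 they were Slc35a5, Lzic and Rab6b (0.985, 0.984 and 0.983), and for Lats1 Nfil3, Dpys and Prdx4 (0.999, 0.997 and 0.996). None of the 6 genes nearest to Wwtr1 and Lats1 was called.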

How the data were processed

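The authors deposited 1 intensity per probe set for each of 6 single-channel Affymetrix arrays (35512 probe sets, linear scale, 0.74 to 9001). The summary method, background correction and normalisation are not given in the sources used here. Per the labels' protocols, 300 ng of total RNA was labelled with a whole-transcript kit. Array medians were 82.4 to 90.5, and 3 arrays per group limit the precision.

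Probe sets of 1 gene (21789) were named through the platform annotation, updated to RefSeq symbols (GRCm38.p6) by gene number for 21698. Intensities were taken as log2(intensity + 1). Probe sets in the lowest 25% by mean (below 5.56) were left out, and the probe set with the highest mean was kept per gene, leaving 17020 genes. The comparison used limma 3.58.1 under R 4.3.3 (lmFit, eBayes, two-sided), Benjamini-Hochberg adjusted over all genes tested, with a call at 0.05. Adjusted p-values of genes are limma's throughout. The test was checked on simulated data. Alternatives changed the normalisation, the filter, the pseudocount (16), the choice of probe set and the variance model, added a replicate block, weights or a marrow covariate, or left out arrays.

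The 10 genes, the lists and the alternatives were chosen with earlier results of these data known. Genes were named by rule: all 10 genes, Stk11, up to 6 called genes per list with the largest difference (or the 2 with the smallest p) and the 3 genes most correlated with each of the 10. Ccn1, Ccn2, Gadd45a, Strn, Mink1, Nf2, Stk38l, Mob1a and Mob1b were added after their values were seen. Stk3 and Runx2 had no probe set of 1 gene here.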

Additional observations from a re-analysis of the deposited data

How the results depend on the processing

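Yap1 kept its direction and its call in all 15 alternatives other than the marrow covariate, with differences of 0.59 to 0.69 and adjusted p from 8.09e-05 to 0.0413. Of the other 9 genes, none was called outside the array weights, except Tead1 without control replicate 1. Array weights, whose estimation stopped before convergence, called 4 of the 10 genes higher and 1 lower, adding Lats1 (0.23), Tead1 (0.42), Tead3 (0.32) and Ankrd1 (-0.34). With array weights, 4406 genes were higher and 3600 lower, against 1335 and 1161 in the reported fit, with 8 partners higher and 4 target genes lower. The marrow covariate left 1 gene higher and 1 lower of all tested, and 0 of the 10 genes, upstream regulators, partners and target genes. It shifted the median of all genes to 0.17 from 0.029. With it the sign turned for Stk11 (0.46), Wwtr1 (-0.43), Lats1 (-0.33), Lats2 (-0.82), Tead1 (-0.90), Tead2 (0.76), Tead3 (-0.46), Amotl2 (-0.74) and Ankrd1 (0.35), and for Stk4 (0.53), Frmd6 (-0.82), Stk38 (0.60), Ptpn14 (-0.77), Myof (-0.91), Axl (-0.14), Strn (0.28), Nf2 (-0.14) and Gadd45a (0.73). None of these was called. Tead4 kept its sign at -1.75 (SE 0.52, adjusted p = 0.148), against -0.16 in the reported fit, and was not called either. Fat4 (0.50), Dchs1 (1.27), Sav1 (1.103), Igfbp3 (1.04), Fjx1 (0.46), Rbms3 (0.72), Mink1 (0.023) and Mark2 (-0.068) also kept their sign and were not called. The marrow level separates the groups completely, so the design cannot tell it apart from genotype. Without each array in turn, 508 to 1641 genes were higher and 427 to 1624 lower, with 1 to 2 of the 10 genes higher, 3 to 5 upstream regulators higher and 1 to 3 lower, 0 to 2 partners higher, and 2 to 5 target genes higher and 0 to 2 lower. The signs of 4 genes near 0 turned in some of these fits, with ranges of -0.048 to 0.12 for Wwtr1, -0.041 to 0.13 for Lats2, -0.11 to 0.037 for Tead2 and -0.34 to 0.035 for Tead4. The single partner call (Ptpn14) was lost with median centring, with no filter and with the replicate block, leaving 0. Gadd45a was called lower, as 1 target gene, with median centring, a filter at the median and an intensity trend. The replicate block changed none of the calls of the 10 genes, but besides Ptpn14 it ended those of Strn (adjusted p = 0.0577), Mark2 (0.0711) and Mink1 (0.0776). The Mink1 call also ended with quantile normalisation, median centring, no filter and an intensity trend (0.0511 to 0.0959), that of Mark2 with no filter (0.0575) and the mean of probe sets (0.111), and that of Stk38 with no filter (0.0542). Same-numbered arrays correlated at 0.08, 0.21 and -0.08 in their deviations from the group means. With 3 arrays per group, these values cannot settle whether the numbers pair the samples. The cause of these changes was not tested.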
